A study of Mus musculus with 12 samples.

Results

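The 9 plasma membrane amino acid transporters Slc7a5, Slc3a2, Slc7a1, Slc7a8, Slc1a3, Slc1a4, Slc1a5, Slc38a1 and Slc38a2 were followed in the hearts of mice that lack Sdhaf4, the assembly factor of succinate dehydrogenase, in striated muscle. The members were the rows of the deposited gene table that carry these gene names, 9 of 43686 rows, chosen by name with no threshold on their values. All 9 had enough counts to be tested.

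Poly-A RNA of the ventricular wall was sequenced from 12 mice, 6 of each genotype, of strain C57BL/6 by the labels and C57BL/6J by the paper. The WT animals carried floxed Sdhaf4 alleles (Sdhaf4 fl/fl) without Cre. The KO animals carried the same floxed alleles together with Ckmm-Cre, which is active in skeletal muscle as well as in cardiac muscle, so that the controls share the floxed alleles but not the Cre. The labels describe the mutants as Sdhaf4-/- and give an age of 2 months, whereas the main text of the study gives a younger age and its reporting summary names a pair of ages, the older of them close to that of the labels. RNA came from whole tissue, in which fewer cells of a type and less RNA per cell cannot be told apart.

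Amino acids cross the plasma membrane through carriers of several solute carrier (SLC) families. Slc3a2 encodes the CD98 heavy chain, a glycoprotein that brings light chains such as the leucine carriers LAT1 (Slc7a5) and LAT2 (Slc7a8) to the cell surface, and these exchange an incoming amino acid for an outgoing one. Glutamine carriers (Slc1a5, Slc38a1, Slc38a2) supply substrate for this exchange and for anaplerosis, Slc7a1 carries arginine and lysine, and Slc1a3 carries glutamate and aspartate. Leucine, arginine and glutamine inside the cell are sensed by the kinase complex mTORC1, and a shortage of amino acids raises translation of ATF4, a transcription factor known to act on several of these carrier genes.

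The libraries held 23747014 to 27159228 counted reads in WT and 26542930 to 31393393 in KO. The targeted gene, Sdhaf4, had 14.3 to 30.3 CPM (read counts scaled to a common library total and corrected for library composition by the trimmed mean of M-values, TMM) in WT and 2.25 to 2.73 CPM in KO, with WT replicate 6 the lowest WT library. KO was compared with WT over 17155 rows by the quasi-likelihood test of edgeR, the p-values being adjusted by the Benjamini-Hochberg method, and a gene was called at an adjusted p under 0.05. A second threshold took the cutoffs of the study's methods, an adjusted p below 0.005 with a log2 fold change above 1 or below -1. The study names DESeq as its test, whereas here these cutoffs were applied to the edgeR values.

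Of the 9 transporters, 4 rose in the KO hearts (Slc1a3, Slc1a5, Slc3a2 and Slc7a5), 1 fell (Slc7a1), and 4 did not pass the test (Slc7a8, Slc1a4, Slc38a1 and Slc38a2). Over all rows tested, 51.1% were called, 25.6% as higher and 25.5% as lower, so the share of members called was close to the background. The same 5 members had WT and KO libraries that did not overlap, against 30.1% of all rows, with KO above WT in 4 (14.9% of all rows) and below it in 1 (15.2%). One transporter, Slc1a3, passed the second threshold, against 10.2% of all rows. The median log2 fold change of the 9 was 0.33, and that of all rows was 0.0022.

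**Figure D1:**
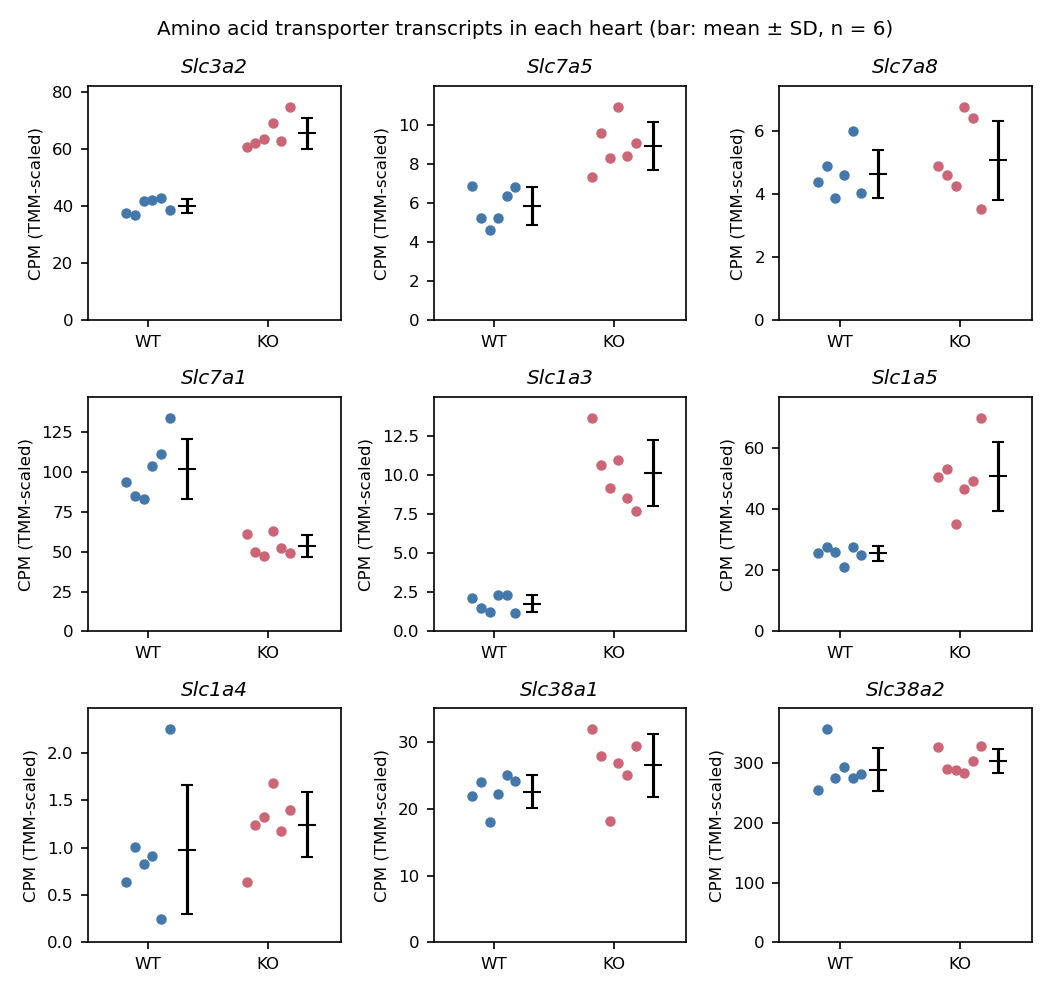
Transcript level of the 9 transporters in each heart, as TMM-scaled CPM on a linear axis from 0, with 6 WT (blue) and 6 KO (red) libraries per panel and the mean ± SD beside them. The KO points lie above all WT points for Slc3a2, Slc7a5, Slc1a3 and Slc1a5 and below them for Slc7a1. For the other 4 genes the ranges overlap, with 4 of 6 KO points above all WT points for Slc38a1.

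The heavy chain Slc3a2 (chromosome 19, 6092958 to 6111947, minus strand, on the C57BL/6NJ assembly, as for all gene spans given here) had a lowest, median and highest level of 37.1, 40.3 and 42.9 CPM in the WT hearts. In the KO hearts these values were 60.8, 63.3 and 74.8 CPM. The lowest KO library thus lay well above the highest WT library, and the spread within each genotype was small. The mean rose 1.63-fold, from 40.1 ± 2.53 to 65.6 ± 5.33 CPM (SD, n = 6 in each genotype), or by 0.71 ± 0.06 (SE) on the log2 scale (adjusted p = 5.38e-08, edgeR's quasi-likelihood test).

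Slc7a5 (chromosome 8, 129581885 to 129610708, minus strand), the light chain LAT1 that exchanges leucine and other large neutral amino acids, was less abundant in counts. Its lowest, median and highest values were 4.60, 5.79 and 6.89 CPM in WT and 7.32, 8.74 and 10.9 CPM in KO. The groups did not overlap, although the highest WT and the lowest KO libraries were near each other. The mean rose 1.52-fold, from 5.86 ± 0.959 to 8.92 ± 1.23 CPM (SD, n = 6, log2 fold change 0.61, standard error 0.12, adjusted p = 0.000617 by edgeR), on 117 to 179 counts per WT library and 228 to 317 counts per KO library.

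Slc7a8 (chromosome 14, 51154388 to 51215140, minus strand) encodes LAT2, the other leucine-carrying light chain among the members. Its WT libraries ran from 3.89 to 6.02 CPM with a median of 4.50, and its KO libraries from 3.53 to 6.76 CPM with a median of 4.76. The KO range enclosed the WT range, and 2 KO libraries lay above all WT libraries. No change was called (log2 fold change 0.13, standard error 0.16, adjusted p = 0.533 by edgeR).

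Because both light chains pair with the same heavy chain, their ratio was taken within each library. The count ratio of Slc7a5 to Slc7a8 had a median of 1.16 in WT (range 1.05 to 1.69) and of 1.77 in KO (range 1.31 to 2.57). The ranges overlapped, and the mean log2 ratio was 0.50 higher in KO. The exact two-sided permutation test gave p = 0.0238, which was 0.0714 after adjustment over the 3 ratios examined, so the ratio did not pass the threshold. Without WT replicate 6 the difference was 0.59 (adjusted p = 0.0390, exact permutation test).

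**Figure D2:**
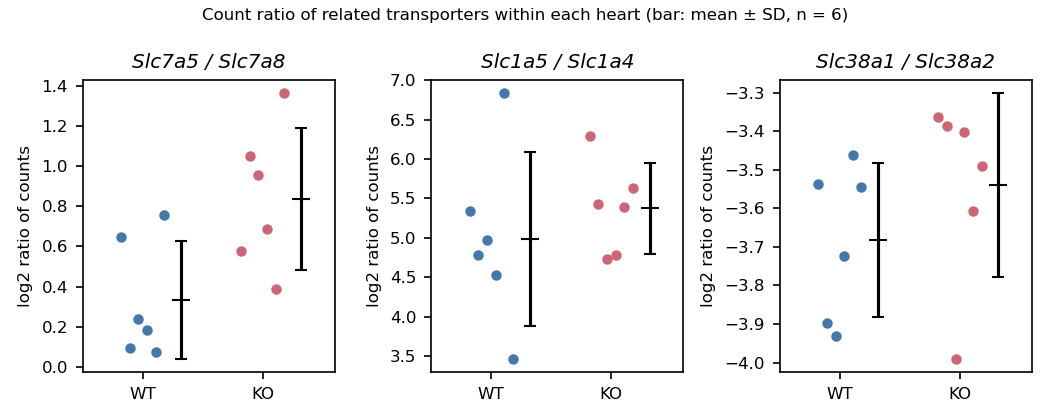
Log2 ratio of the counts of related transporters within each library, 6 WT (blue) and 6 KO (red) hearts with mean ± SD. The 2 genotypes overlap in each of the 3 ratios, and the differences in mean are 0.50 for Slc7a5 to Slc7a8, 0.39 for Slc1a5 to Slc1a4 and 0.14 for Slc38a1 to Slc38a2. Without WT replicate 5 the first is 0.45 and the second 0.76.

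Slc7a1 (chromosome 5, 159726705 to 159811195, minus strand), the cationic amino acid transporter CAT1, was the member that fell. Its lowest, median and highest values were 82.9, 98.9 and 134 CPM in the WT hearts and 47.2, 50.8 and 63.2 CPM in the KO hearts. The highest KO library lay below the lowest WT library, and WT replicate 6 was the highest of all. The mean went from 102 ± 19.0 to 53.6 ± 6.74 CPM (SD, n = 6), which is -0.92 ± 0.12 (SE) on the log2 scale (adjusted p = 1.44e-05 by edgeR). Slc7a2, which encodes the related cationic carrier CAT2, rose from 4.89 to 7.80 CPM (log2 fold change 0.67, adjusted p = 0.000749 by edgeR).

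Slc1a3 (chromosome 15, 5918762 to 5999434, minus strand), the glutamate and aspartate transporter known from glia as GLAST, had the largest change of the 9. It was at 1.15, 1.80 and 2.34 CPM (lowest, median, highest) in WT, on 30 to 58 counts per library. In KO it was at 7.71, 9.90 and 13.6 CPM, on 214 to 424 counts per library. Each KO library exceeded the highest WT library by a wide margin. The mean rose 5.71-fold, from 1.77 ± 0.550 to 10.1 ± 2.12 CPM (SD, n = 6, log2 fold change 2.52, standard error 0.19, adjusted p = 1.94e-08 by edgeR). A row on the same strand overlaps Slc1a3, with a mean of 0.0816 CPM. The glutamate transporter Slc1a2 (GLT-1) was also higher, from 0.768 to 2.26 CPM (log2 fold change 1.55, adjusted p = 4.78e-05 by edgeR).

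Slc1a5 (chromosome 7, 15269217 to 15285702, plus strand) encodes ASCT2, an exchanger of glutamine and other neutral amino acids. Its WT libraries ran from 21.1 to 27.7 CPM with a median of 25.8, and its KO libraries from 35.2 to 69.5 CPM with a median of 49.7. The groups were apart, but the KO hearts were spread widely, with KO replicate 3 the lowest and KO replicate 6 the highest. The mean rose 1.99-fold, from 25.5 ± 2.46 to 50.6 ± 11.2 CPM (SD, n = 6), which is 0.99 ± 0.13 (SE) on the log2 scale (adjusted p = 1.65e-05 by edgeR). This lies just under the second threshold, which Slc1a5 passed when WT replicate 2, WT replicate 5, KO replicate 3 or KO replicate 4 was left out.

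Slc1a4 (chromosome 11, 18630164 to 18663868, minus strand), the related carrier ASCT1 for serine and alanine, was the lowest member. It was at 0.243 to 2.25 CPM in WT, on 6 to 59 counts, and at 0.642 to 1.68 CPM in KO, on 20 to 49 counts. The KO range fell inside the WT range. No change was called (log2 fold change 0.33, standard error 0.38, adjusted p = 0.485 by edgeR), and leaving out single libraries moved the value between 0.13 and 0.76. The table gives Slc1a4 a length of 1599 bases, a multiple of 3, whereas the shortest coding transcript of the gene in the GENCODE annotation of GRCm38 has 3872 bases. How many reads this left uncounted was not tested. The ratio of Slc1a5 to Slc1a4 counts ran from 11 to 114 in WT and from 26.6 to 78.3 in KO (exact permutation test, p = 0.455).

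Slc38a1 and Slc38a2, the sodium-coupled neutral amino acid transporters SNAT1 and SNAT2, lie 52724 bases apart on the minus strand of chromosome 15 (101793165 to 101866867 and 101919592 to 101932026). Slc38a1 was at 18, 23.1 and 25 CPM (lowest, median, highest) in WT and at 18.2, 27.3 and 31.9 CPM in KO. In 4 of 6 KO hearts it lay above all WT hearts, and KO replicate 3 was next to the lowest WT library. It was not called (log2 fold change 0.23, standard error 0.11, adjusted p = 0.102 by edgeR), but without KO replicate 3 it was, with a log2 fold change of 0.31 (adjusted p = 0.00460 by edgeR).

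Slc38a2 had the most counts of the 9, with 255, 279 and 357 CPM in WT and 283, 298 and 330 CPM in KO. The KO range lay inside the WT range, but the top of the latter was set by WT replicate 2, with WT replicate 4 next at 293 CPM. The change was 0.07 ± 0.07 (SE) on the log2 scale (adjusted p = 0.437 by edgeR). In the fits with 1 library left out it was 0.03 to 0.14 (adjusted p 0.0610 to 0.768 by edgeR). The ratio of Slc38a1 to Slc38a2 counts had a median of 0.0807 in WT and 0.0918 in KO (exact permutation test, p = 0.284). The next member of the family on this chromosome, Slc38a4 (102257675 to 102320245, 325648 bases beyond Slc38a2 and also on the minus strand), encodes SNAT4. It fell from 13.6 to 21.1 CPM in WT to 1.08 to 2.51 CPM in KO, which is -3.43 on the log2 scale (adjusted p = 3.34e-10 by edgeR).

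Promoter sequences, from 250 bases before to 50 after the start of a transcript, were read from RefSeq (GRCm38.p6) for the 6 members found there, Slc7a1 with 2 windows, and Slc1a4, Slc7a8, Slc1a3, Slc38a2 and Slc3a2 with 1 each. The core of the amino acid response element, which ATF4 binds with a partner, was searched as TGATGNAA on either strand, and the E-box, bound by MYC and related factors, as CACGTG. The first was in 1 of 7 member windows, that of Slc1a4, against 3.97% of 32851 windows in all. The second was in 0 of 7, against 7.15% of all windows, so no matches overlapped. Sites outside these windows, such as in introns, were not searched, nor were Slc7a5, Slc1a5 and Slc38a1, which had no window. The Slc1a4 match lies on the opposite strand and spans the start, with 4 bases before it and 4 from it on, and is shown in capitals within 30 bases of the gene's strand (GRCm38.p6, chr11:20332699-20332728, minus strand), in a gene that was not called.
Slc1a4 site: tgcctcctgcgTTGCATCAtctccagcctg

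The 250 bases upstream of the start are shown for the 3 called members that have a window, Slc3a2 and Slc1a3, which rose, and Slc7a1, which fell and for which the further upstream of its windows is shown. They are all on the minus strand (GRCm38.p6, chr19:8713898-8714147, chr15:8710808-8711057 and chr5:148399905-148400154) and are written 5′ to 3′ along the gene, with no base in capitals because neither motif is present.
Slc3a2 upstream: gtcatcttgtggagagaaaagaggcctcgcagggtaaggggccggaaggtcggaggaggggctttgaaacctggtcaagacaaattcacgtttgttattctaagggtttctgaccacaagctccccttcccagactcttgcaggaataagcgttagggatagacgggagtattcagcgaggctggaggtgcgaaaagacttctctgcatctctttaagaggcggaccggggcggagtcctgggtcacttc
Slc1a3 upstream: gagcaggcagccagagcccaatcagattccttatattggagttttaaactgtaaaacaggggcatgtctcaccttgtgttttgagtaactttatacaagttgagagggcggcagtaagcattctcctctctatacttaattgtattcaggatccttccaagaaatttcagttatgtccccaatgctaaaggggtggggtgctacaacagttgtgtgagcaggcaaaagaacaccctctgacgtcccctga
Slc7a1 upstream: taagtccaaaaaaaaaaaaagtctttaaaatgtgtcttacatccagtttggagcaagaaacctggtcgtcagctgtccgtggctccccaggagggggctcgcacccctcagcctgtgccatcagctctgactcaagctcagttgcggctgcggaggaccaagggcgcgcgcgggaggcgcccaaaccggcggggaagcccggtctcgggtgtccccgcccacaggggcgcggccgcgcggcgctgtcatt
They differ in composition. G and C make up 53.6% of the bases in Slc3a2, 44.8% in Slc1a3 and 62.4% in Slc7a1, and all windows had a median of 52.4%. The Slc7a1 stretch holds 21 CG dinucleotides, against 11 in Slc3a2 and 2 in Slc1a3.

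Levels can be compared between genes only per length, for which the deposited FPKM (fragments scaled to gene length and library size) was used. In the WT hearts the order of the mean FPKM was Slc38a2 (62.7), Slc3a2 (54.6), Slc7a1 (41.6), Slc1a5 (22.4), Slc7a5 (4.08), Slc38a1 (3.07), Slc7a8 (1.15), Slc1a3 (1.02) and Slc1a4 (0.618). The libraries of Slc38a2 and Slc3a2 overlapped, as did those of Slc3a2 and Slc7a1, of Slc7a5 and Slc38a1, and of each neighbouring pair from Slc7a8 to Slc1a4. The heavy chain thus had a higher FPKM than the light chains Slc7a5 and Slc7a8 in each WT heart.

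In the KO hearts Slc3a2 came first (89.4 FPKM), ahead of Slc38a2 (65.8), Slc1a5 (44.5) and Slc7a1 (22.0), and the libraries of these neighbours did not overlap. Slc7a1 and Slc1a5 had changed places, and Slc1a3 (5.89) had moved up to overlap Slc7a5 (6.22) and Slc38a1 (3.61). Slc7a8 (1.27) and Slc1a4 (0.778) remained at the bottom and overlapped. These orders rest on the length behind the FPKM, which differed from the length listed in the table for 6 of the 9 members. It corresponded to 734 bases for Slc3a2 (listed 2014), 2449 for Slc7a1 (7179), 1138 for Slc1a5 (2807), 1436 for Slc7a5 (3517), 1722 for Slc1a3 (4432) and 7359 for Slc38a1 (7752). With the listed lengths, Slc38a2 led in KO as in WT, with 65.8 against 32.6 for Slc3a2, and in WT its libraries no longer overlapped those of Slc3a2 (at least 54.9 against at most 20.8). Slc38a1 then stood above Slc7a5 in both genotypes, and in WT Slc1a3 (0.397) stood below Slc1a4 (0.618).

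**Figure D3:**
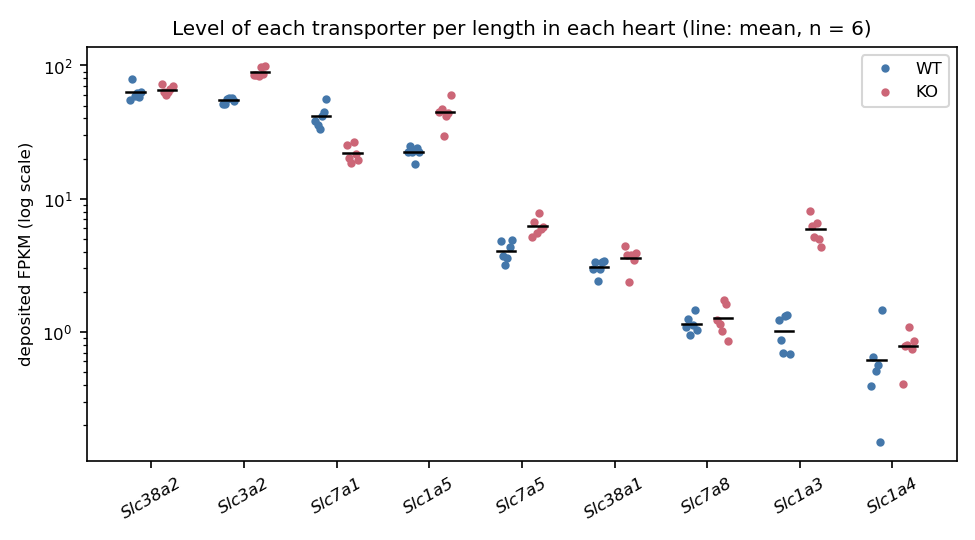
Deposited FPKM of each transporter in each heart on a log axis, ordered by the WT mean, with WT in blue, KO in red and a line at each mean of 6 libraries. WT means run from 62.7 for Slc38a2 to 0.618 for Slc1a4, and Slc1a3 moves from 1.02 to 5.89.

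Within a genotype, the members' deviations were mostly weakly correlated. After the genotype mean was taken from log2 CPM, the 36 pairs of members had a median Pearson correlation of 0.0810 over the 12 libraries, from -0.69 for Slc1a3 with Slc1a4 to 0.65 for Slc1a5 with Slc38a1. These are descriptions, since all genes of a library come from the same RNA sample. Among 10044 annotated genes, the deviations of Slc7a5 were most like those of Ankrd13c (Pearson r = 0.890), Alkbh8 (0.842) and Socs4 (0.841). Those of Slc3a2 were most like Tonsl (0.868), Trappc5 (0.859) and Psmc4 (0.848). All were picked as the highest of 10044 correlations over 12 libraries, where chance alone can give high values. Whether they exceed chance was not tested.

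Other amino acid transporters were taken as a list of 44 genes, of which 43 were in the table and 23 were tested. Of these, 5 rose (21.7%) and 9 fell (39.1%), against 25.6% and 25.5% of all rows, with a median log2 fold change of -0.05. Besides Slc1a2 and Slc7a2, Slc6a6, the taurine transporter, rose from 179 to 244 CPM (log2 fold change 0.45). The largest falls after Slc38a4 included Slc36a2, a proton-coupled carrier of small neutral amino acids, from 19.7 to 4.10 CPM (-2.26), and Slc38a3, the glutamine transporter SNAT3, from 52.6 to 18.9 CPM (-1.47). Of 3 further carriers of large neutral or aromatic amino acids, chosen after their values were seen, Slc43a1 (LAT3) was at 2.54 CPM in WT and 3.33 CPM in KO (0.39, not called), whereas Slc43a2 (LAT4) fell from 77.0 to 36.6 CPM (-1.07) and Slc16a10 (TAT1) from 19.6 to 11.7 CPM (-0.74), the latter pair with no overlap of the genotypes.

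**Figure D4:**
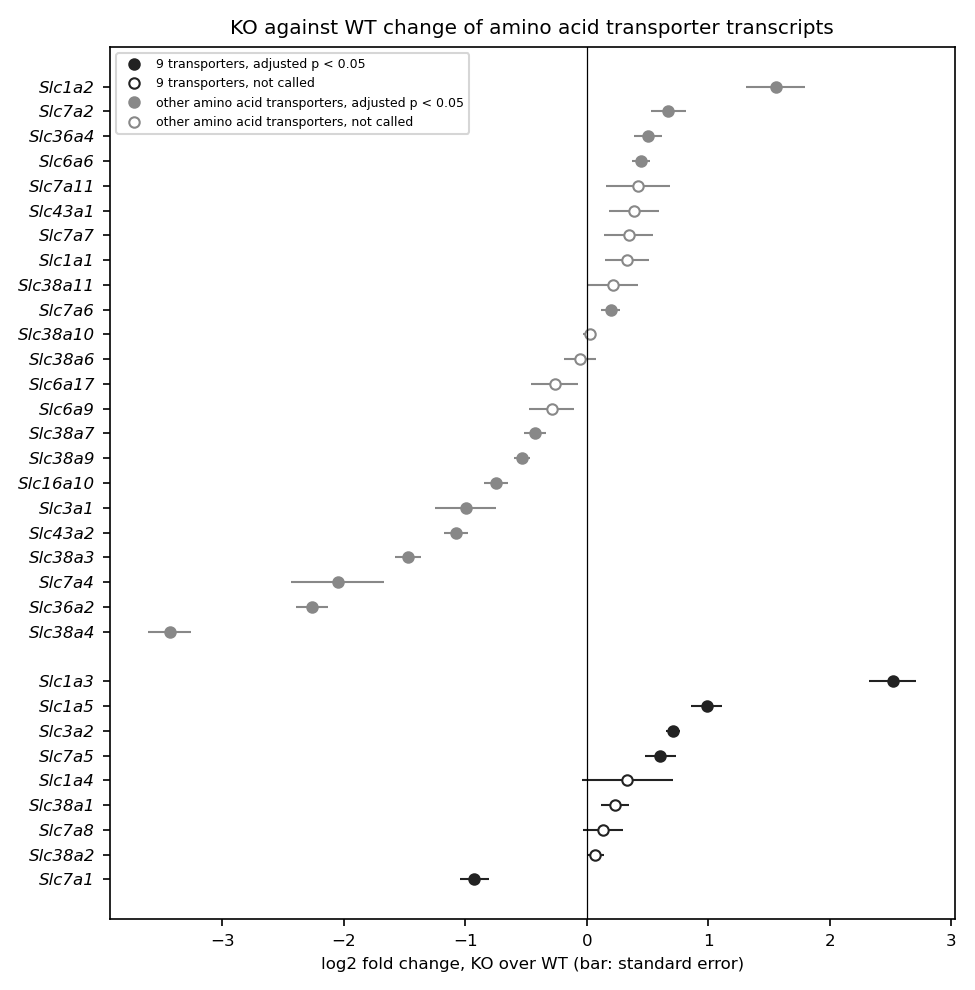
Log2 fold change of KO over WT with its standard error for the 9 transporters (black) and the 23 other amino acid transporters tested (grey), filled where the adjusted p was under 0.05. Slc1a3 (2.52) is the highest of both sets and Slc38a4 (-3.43) the lowest.

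Of 35 tested genes in a list of amino acid sensing to mTORC1, 8 rose and 15 fell. These shares were 22.9% and 42.9%, against 25.6% and 25.5% of all rows, with a median log2 fold change of -0.03. Mtor, the kinase itself, rose from 64.0 to 98.2 CPM (log2 fold change 0.62), the Rag GTPase Rragc from 59.2 to 78.0 CPM (0.40) and the Ragulator subunit Lamtor3 from 28.9 to 40.1 CPM (0.47). Mtor overlaps Angptl7, and Lamtor3 overlaps a row of 13.8 CPM on the same strand, so the sizes of both changes are uncertain. Tsc1, an inhibitor of the pathway, fell from 61.2 to 45.9 CPM (-0.42), Kptn, a subunit of the KICSTOR complex, from 16.3 to 10.7 CPM (-0.61), and Wdr24, a subunit of GATOR2, from 14.4 to 10.4 CPM (-0.48).

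In the list of the amino acid starvation response, 10 of 18 tested genes rose and 2 fell. These were 55.6% and 11.1%, against 25.6% and 25.5% of all rows, and the median log2 fold change was 0.30. Nupr1, a stress-induced transcriptional regulator, rose from 6.05 to 25.1 CPM (log2 fold change 2.05), and Eif2ak4, the kinase GCN2 that senses uncharged tRNA, from 12.5 to 20.5 CPM (0.72). Ddit3, the transcription factor CHOP, rose from 15.0 to 29.0 CPM (0.95) but overlaps Mars on the opposite strand. Atf3, an immediate stress-response factor, fell from 17.7 to 5.43 CPM (-1.70), and Eif4ebp1, a repressor of translation and a substrate of mTORC1, from 148 to 111 CPM (-0.41), both with overlapping libraries.

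A list compiled around the turnover and activity of the carriers gave 6 rises and 3 falls in 16 tested genes. It also holds transcription factors (Myc, Mycn) and Slc7a6os, so not all of its genes act on a carrier directly. The shares were 37.5% and 18.8%, against 25.6% and 25.5% of all rows, and the median log2 fold change was 0.11. Nedd4 and Nedd4l, ubiquitin ligases known to act on membrane transporters, fell from 774 to 589 CPM (-0.39) and from 45.6 to 31.3 CPM (-0.54). Sgk1, a kinase that opposes Nedd4l, rose from 132 to 197 CPM (0.57), the arrestin-like adaptor Arrdc3 from 87.8 to 123 CPM (0.49) and the ligase Cbl, which overlaps Mcam, from 43.0 to 59.5 CPM (0.47). Mycn, a transcription factor of the MYC family, fell from 2.34 to 1.05 CPM (-1.15).

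**Figure D5:**
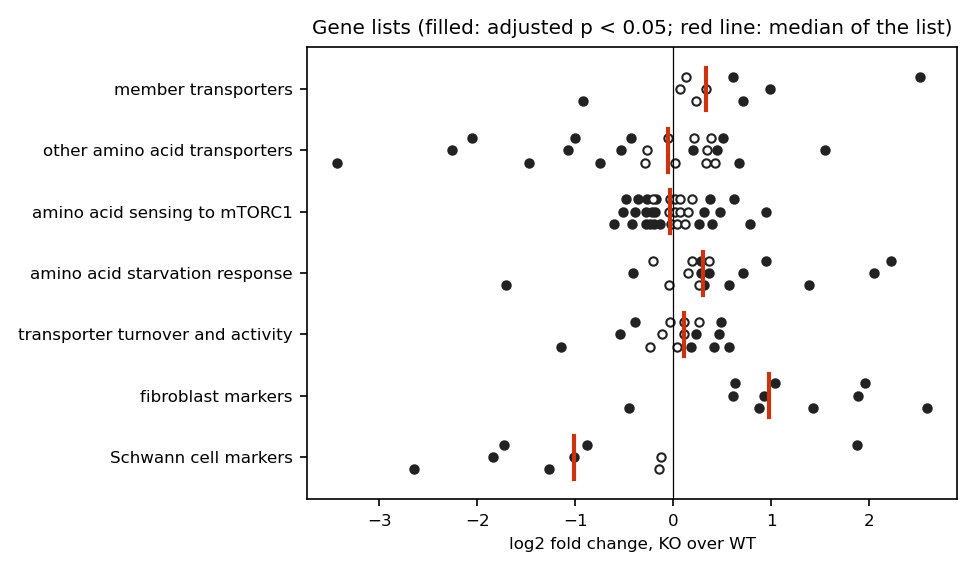
Log2 fold change of KO over WT for each tested gene of the 9 transporters, 4 lists of related genes and 2 marker lists, filled where the adjusted p was under 0.05, with a red line at the median of the list. The medians are 0.33 for the 9 transporters, 0.30 for the starvation response, 0.98 for the fibroblast markers and -1.01 for the Schwann cell markers.

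Markers of other cell types are given beside the 25.6% of all rows that rose and the 25.5% that fell. Of the 10 fibroblast markers, 9 rose and 1 fell (median log2 fold change 0.98), and their summed level was 1603 to 1886 CPM in WT and 2557 to 4746 CPM in KO. Mfap5 (2.59), Pdgfra (0.87) and Dcn (0.63) were among those that rose, and Dpt (-0.46) fell. Of 9 Schwann cell markers tested, 1 rose (Ncam1, 1.88) and 6 fell, among them Kcna1 (-1.83) and Sox10 (-1.73). The median log2 fold change was -1.01, and the summed level was 35.2 to 48.4 CPM in WT and 34.5 to 57.2 CPM in KO. That sum includes Ncam1, which rose from a mean of 5.22 CPM in WT to 19.2 CPM in KO. The cardiomyocyte markers, which took 53078 to 58612 CPM in WT and 45750 to 63779 CPM in KO, had 2 rises and 5 falls in 10. Endothelial markers had 5 rises and 2 falls in 9, mural markers 3 and 3 in 10, macrophage markers 1 and 2 in 9, lymphocyte markers 1 and 0 in 8, and erythroid markers 0 and 0 in 3. The part of these markers in the change of Slc1a3, Slc1a5, Slc3a2, Slc7a5 and Slc7a1 was not tested.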

How the data were processed

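Bulk RNA-seq libraries of 6 WT and 6 KO hearts were analysed, with groups and replicate numbers from the sample labels. The submitters' processing notes name HISAT2 2.0.5 and mm10, whereas the identifiers (MGP_C57BL6NJ) belong to the C57BL/6NJ assembly. The authors deposited raw read counts per gene, FPKM values per library computed from counts and gene length, and gene lengths. Their own group means, fold changes and p-values are also in the table, and these were not used. Whether counting used strand is not given in the sources used here. Of 43686 rows, 2590 are unannotated loci.

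Counts were scaled by TMM and tested with edgeR 4.0.16 in R 4.3.3 (filterByExpr, robust quasi-likelihood test, Benjamini-Hochberg adjustment over 17155 rows), after a check on simulated data. Ratios were tested with the exact permutation test in scipy 1.17.1, whose smallest p is 0.00216 here. Replicates of a genotype differed beyond sampling noise (lowest chi-square per degree of freedom 6.99), and each counted as 1 sample. The labels do not state separate litters or preparations, so p-values measure the spread between these samples.

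The members and lists were chosen with earlier results of these data known. All 9 members were named, and from each other list up to 3 genes in each direction with the smallest p among those called with a mean of at least 1 CPM (for the marker lists, those of fibroblasts and Schwann cells), with for Slc7a5 and Slc3a2 the 3 most correlated genes of at least 5 CPM. A gene that this rule names among the Schwann cell markers is not reported here. Of 206 listed genes, 196 were found in the table, 2 through a synonym. Alternatives were other normalizations, filters and tests (DESeq2 1.42.0, limma 3.58.1), a replicate block and each library left out. Levels by the listed length, other fits for list genes and a single promoter window per gene were added after the data were seen.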

Additional observations from a re-analysis of the deposited data

Results flagged for a closer look

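None of the 9 transporters had a library that stood apart from the other 5 of its genotype by Dixon's criterion. Slc38a2 in WT replicate 2 (357 CPM, next WT library 293) and Slc1a4 in WT replicate 6 (2.25 CPM, next 1.01) came near it. Among 88 groups of 6 libraries examined, 4 had a library that met it, and chance alone gives about 1 in 20, or 4.4. Slc36a2 was at 12.8 CPM in WT replicate 2 and at 19.8 to 22.5 CPM in the other WT hearts. Nupr1 was at 7.92 CPM in WT replicate 5, against 5.09 to 6.13 CPM. Mycn was at 0.396 CPM in KO replicate 6, against 1.06 to 1.40 CPM. Sdhaf4 was at 2.73 CPM in KO replicate 1, against 2.25 to 2.41 CPM.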

How the results depend on the processing

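Slc3a2, Slc7a5, Slc1a3, Slc1a5 and Slc7a1 kept their direction and their call in all 22 other fits, 12 of which left out 1 library. In the fits with 1 library left out, the log2 fold change was 0.66 to 0.73 for Slc3a2, 0.54 to 0.66 for Slc7a5, 2.41 to 2.61 for Slc1a3, 0.87 to 1.07 for Slc1a5 and -0.98 to -0.83 for Slc7a1. The number of members past the second threshold ranged from 1 to 2 in these fits, since Slc1a5 passed it without WT replicate 2 (1.01), WT replicate 5 (1.01), KO replicate 3 (1.07) or KO replicate 4 (1.01). The difference in the Slc7a5 to Slc7a8 ratio ranged from 0.40 to 0.59, with an adjusted p of 0.0390 to 0.143 (exact permutation test), and passed the threshold without WT replicate 6. Same-numbered WT and KO libraries did not deviate together (correlations from -0.162 to 0.0243), and the hearts were treated as unpaired. A weak pairing, as by litter, may not show in such correlations. With a replicate block the log2 fold change of Slc38a1 was 0.22 and was called (adjusted p = 0.0358 by edgeR), and its adjusted p over the fits that left out 1 library was 0.00460 to 0.228, the lowest without KO replicate 3. Slc7a8, Slc1a4 and Slc38a2 were not called in any of the 22. The cause was not tested. Depth limits Slc1a4 most, with as few as 6 counts in a library. The Slc1a5 to Slc1a4 ratio moved from 0.39 to between 0.08 and 0.76 when 1 library was left out, the lowest without WT replicate 6 and the highest without WT replicate 5, and was not called in any of these.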
